A study of Homo sapiens with 16 samples.

Results

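NEAT1 and MALAT1 are neighbouring genes on the long arm of human chromosome 11 that make 2 abundant long noncoding RNAs of the nucleus. The chromatin around them was described here by the 19 count intervals, of 74404 in the deposited table, that overlap either gene, lie between the genes or lie within 20 kb of either gene (GENCODE release 44, hg38). The rule takes intervals by position alone, and the locus itself was picked with earlier results of these data known. They are numbered 1 to 19 from upstream of NEAT1 to downstream of MALAT1. All 19 enter the counts, and 18 are described singly.

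The 16 libraries are CUT&Tag, in which an antibody brings a transposase to its target so that nearby DNA is tagged, from the human embryonic kidney line HEK293 of genotype eGFP-YAP. All cells carried eGFP-YAP, the controls included, and had been starved of serum for 1 h. They then received vehicle or sorbitol, an osmolyte that makes the medium hyperosmotic, at 200 mM for 1 h. The antibodies were against CTCF, RAD21, GFP (which reads eGFP-YAP) and H3K27ac, with 2 vehicle and 2 sorbitol libraries for each of the 4 targets. The column names of the table give the vehicle libraries as 0 h, whereas the treatment protocol says that untreated controls were taken alongside. These sources leave unclear whether vehicle cells were harvested at the same time as sorbitol cells. Libraries with a non-specific antibody were not analysed here. The labels do not say whether the 2 libraries of a group came from separate cultures, so p-values measure the spread between libraries, which may be technical. In bulk nuclei, fewer nuclei that carry a target at a site and less of it per nucleus cannot be told apart.

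NEAT1 RNA is the scaffold of paraspeckles, bodies that form when proteins such as SFPQ and NONO assemble along its long isoform, while its short isoform ends early in the gene. MALAT1 RNA accumulates in nuclear speckles, which hold splicing factors such as SRSF2 and SRRM2. CTCF binds a long sequence motif and halts cohesin, the ring that extrudes chromatin loops and of which RAD21 is a subunit. H3K27ac marks active promoters and enhancers, and YAP is a coactivator that reaches DNA mainly through TEAD factors.

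In GENCODE, NEAT1 (ENSG00000245532.11) lies on the plus strand at chr11:65422774-65445540, spans 22.8 kb and has 9 transcripts, 1 of which reaches the end of the gene. MALAT1 (ENSG00000251562.11) lies on the same strand at chr11:65497640-65508073, spans 10.4 kb and has 66 transcripts. The genes are 52.1 kb apart. TALAM1, transcribed antisense to MALAT1, occupies chr11:65499312-65507432. Of the 19 intervals, 4 lay upstream of NEAT1, 2 in NEAT1, 8 between the genes, 3 in MALAT1 and 2 downstream of MALAT1. Of all 19, 13 lay within 1 kb of an annotated start site. Widths ran from 200 to 1601 bp, GC content from 47.29% to 68.84%, and single counts from 0 to 830. Past interval 6 the remaining 21.5 kb of NEAT1, which only the long isoform covers to its end, held no interval. The nearest intervals outside the 20 kb limit lay 35722 bp upstream of NEAT1, at FRMD8, and 32262 bp downstream of MALAT1, at LTBP3. The FRMD8 interval had CTCF counts of 12 and 13 (vehicle) and 27 and 25 (sorbitol), and the LTBP3 interval 528 and 308 against 108 and 103.

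The start regions of both genes are printed because the start sites differ in sequence. Most counts inside the genes fall in intervals 5 and 15, which hold the NEAT1 start and the upstream MALAT1 start. Counts are per interval and cannot be placed on the printed windows. Each window runs from 250 bases before to 50 bases after the RefSeq start, 5′ to 3′ on the plus strand of hg38. Capitals mark matches on either strand to the core promoter box TATAAA or to the GC box GGGCGG, which do not overlap here.
NEAT1, chr11:65422548-65422847: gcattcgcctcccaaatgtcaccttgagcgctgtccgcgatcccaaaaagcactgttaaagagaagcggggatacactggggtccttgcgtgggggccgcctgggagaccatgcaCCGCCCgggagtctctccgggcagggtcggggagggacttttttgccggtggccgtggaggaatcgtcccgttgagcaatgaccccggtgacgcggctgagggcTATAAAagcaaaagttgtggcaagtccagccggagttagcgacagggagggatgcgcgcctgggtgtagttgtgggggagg
MALAT1 upstream start, chr11:65497488-65497787: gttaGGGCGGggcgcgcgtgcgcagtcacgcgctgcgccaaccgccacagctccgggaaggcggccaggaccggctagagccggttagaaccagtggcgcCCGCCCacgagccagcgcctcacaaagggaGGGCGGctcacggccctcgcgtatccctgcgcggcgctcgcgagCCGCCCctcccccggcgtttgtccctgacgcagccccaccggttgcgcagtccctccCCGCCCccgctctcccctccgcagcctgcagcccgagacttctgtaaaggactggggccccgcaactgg
MALAT1 internal start, chr11:65498795-65499094: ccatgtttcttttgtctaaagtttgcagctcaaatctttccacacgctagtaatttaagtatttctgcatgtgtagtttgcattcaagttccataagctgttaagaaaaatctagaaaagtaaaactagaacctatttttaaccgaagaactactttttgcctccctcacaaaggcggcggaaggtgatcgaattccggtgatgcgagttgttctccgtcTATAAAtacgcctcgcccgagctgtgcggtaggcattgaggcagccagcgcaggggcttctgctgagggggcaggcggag

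The NEAT1 window is 62.0% GC with 22 CpG, and holds a TATAAA that begins 31 bases before the start and 1 GC box. The upstream MALAT1 window is 73.7% GC with 37 CpG, and holds 5 GC boxes and no TATAAA. The internal MALAT1 start has a 46.0% GC window with a TATAAA that begins 30 bases before it. In RefSeq promoters of the same length, 35116 in all, TATAAA occurs in 11.5% and GGGCGG in 45.0%. The NEAT1 window and the upstream MALAT1 window each overlap 1 interval, whereas the window of the internal MALAT1 start overlaps none. No match to GGAATG (the TEAD motif), TGANTCA (the AP-1 motif) or CCGGAAG (an ETS motif) was found in these 3 windows. Those letters occur in 14.0%, 7.7% and 10.3% of the RefSeq promoters.

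The CTCF consensus was present in 3 of the 19 intervals, searched with at most 1 mismatch in the central 300 bases, compared with 16.5% of 74403 intervals. The sites in intervals 1 and 18 are printed with 10 flanking bases on the strand that carries the motif, with the matched bases in capitals. Whether these sites relate to the CTCF values of the flanks was not tested.
Interval 1, chr11:65416515-65416548, plus strand, 0 mismatches: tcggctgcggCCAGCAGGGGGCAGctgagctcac
Interval 18, chr11:65510928-65510961, minus strand, 1 mismatch: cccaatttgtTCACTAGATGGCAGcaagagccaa
The TEAD letters stood in the central 300 bases of 3 intervals (9, 15 and 18), compared with 14.5% of all intervals.

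Total counts per library were 2.84 to 4.51 M (1e6 counts) for CTCF, 1.19 to 2.30 M for RAD21, 2.34 to 3.82 M for eGFP-YAP and 6.54 to 8.84 M for H3K27ac. A set of 388 dominant intervals, none of them at this locus, took more than 0.1% of a library each or lay on mitochondrial or unplaced sequence or in the YAP1 gene. Outside them, 2.22 to 3.36 M CTCF counts were left with vehicle and 1.22 to 1.28 M with sorbitol. The corresponding ranges were 0.46 to 1.15 and 0.38 to 0.44 M for RAD21, 1.38 to 1.68 and 0.40 to 0.54 M for eGFP-YAP, and 6.17 to 6.21 and 7.34 to 8.41 M for H3K27ac. Levels are therefore given as counts per 1e6 on TMM-scaled library sizes of each target (CPM). Scaling to the total count was the main alternative: its counts are given for every target, and its single folds for the CTCF calls it ended and for some other values. That scaling moved the median log2 fold change of all tested intervals from -0.06 to -1.04 for CTCF, from -0.01 to -0.60 for RAD21, from -0.04 to -1.46 for eGFP-YAP and from 0.02 to 0.17 for H3K27ac. By H3K27ac, each marker gene was read at its strongest start-site interval, and 7 of 9 HEK293 marker genes stood above the median start-site interval with vehicle. KRT8 and KRT18, both among the 7, had identical values (47.5 CPM with vehicle). Of 9 markers of other cells, 4 had an interval and 0 stood above that median.

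**Figure D1:**
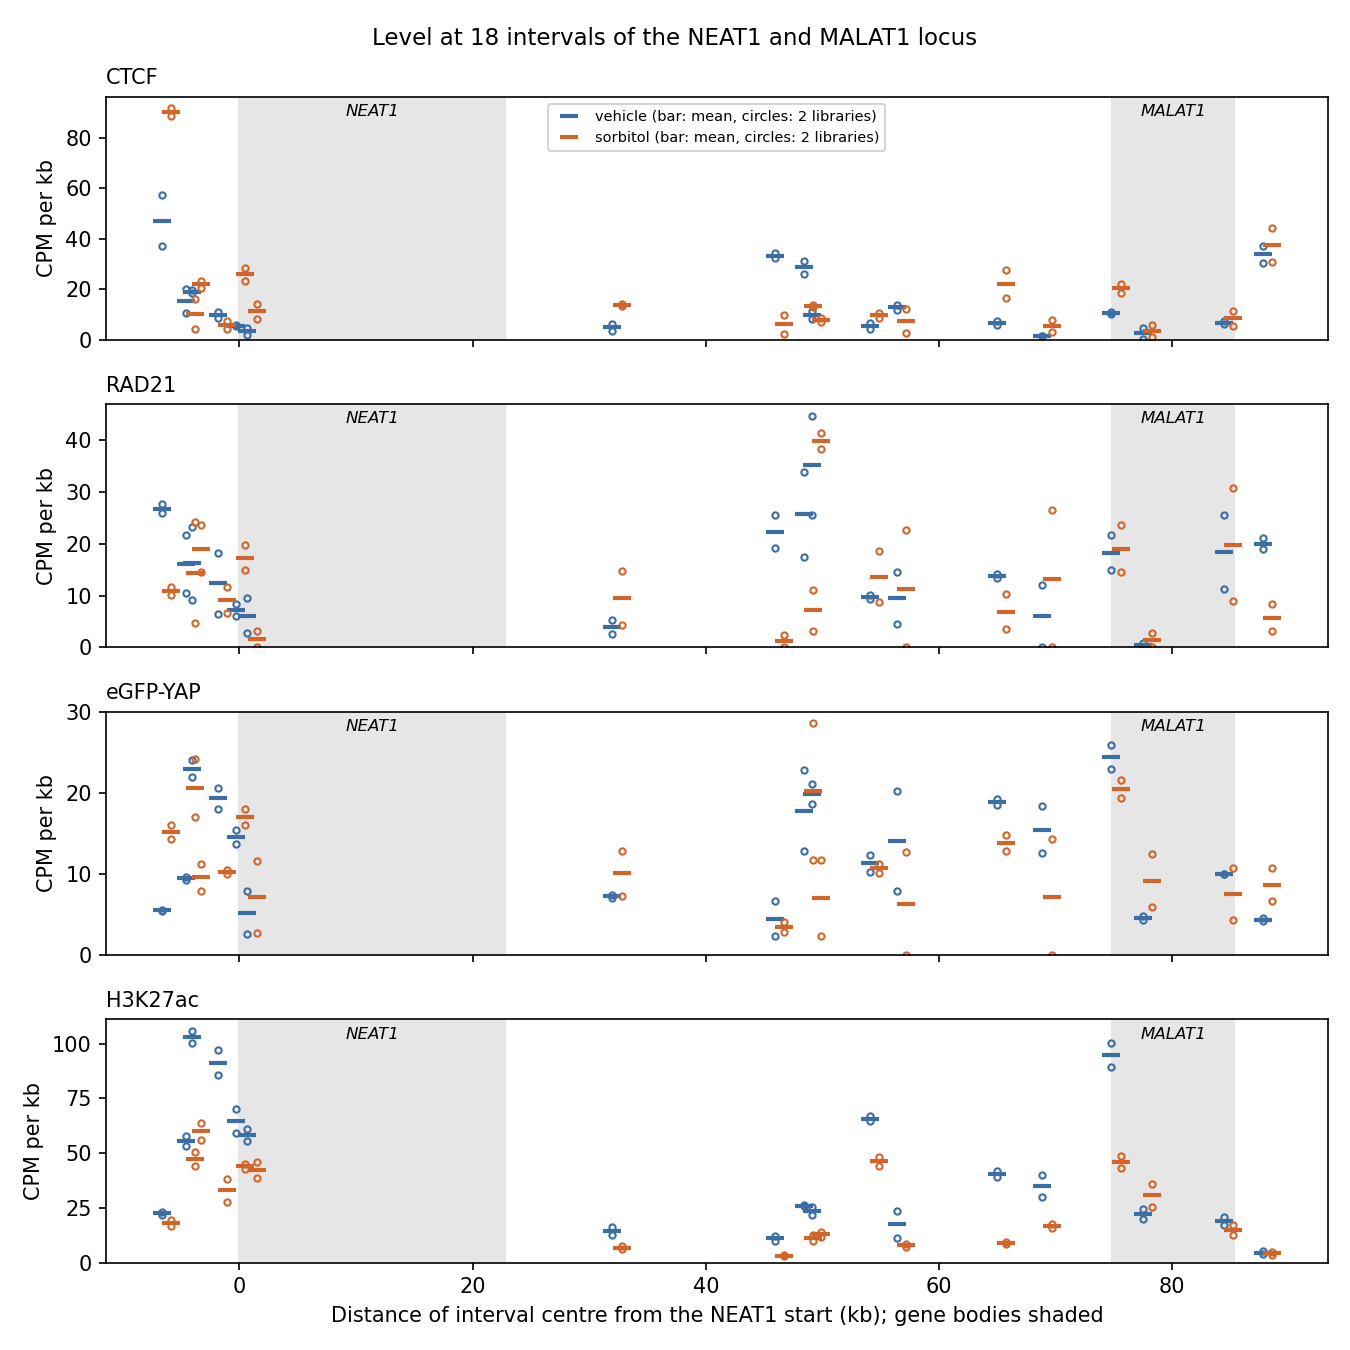
Level of 18 of the 19 intervals in CPM per kb of interval (y axis, linear, 1 panel per target) against the distance of the interval centre from the NEAT1 start in kb. Circles are the 2 libraries of a group, short bars their mean, with vehicle drawn slightly left and sorbitol slightly right of the true position. H3K27ac is lower with sorbitol in both libraries at 16 of the 18 intervals drawn, while CTCF means move up at both gene starts and down at intervals 8 and 9.

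At the start of NEAT1, CTCF tags were higher with sorbitol and H3K27ac was lower. Interval 5 (chr11:65422041-65423641) covers this start and the first exon. CTCF there was 8.69 and 9.23 CPM with vehicle and 45.5 and 37.3 CPM with sorbitol, so the groups lay far apart. The log2 fold change was 2.21 ± 0.24 (SE, n = 2 per group, edgeR quasi-likelihood test, adjusted p = 2.9e-07), a 4.62-fold rise. It was 1.22 under scaling to the total count (adjusted p = 4.9e-04). Per kb, the interval moved from above 47.4% of all intervals to above 89.0% in CTCF.

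RAD21 at the same interval was 9.86 and 13.3 CPM with vehicle and 31.5 and 23.9 CPM with sorbitol. Both sorbitol libraries stood above both vehicle libraries, but the difference did not pass the test over all intervals (log2 fold change 1.30 ± 0.43, edgeR adjusted p = 0.10). The RAD21 difference passed in 3 of 14 alternatives, and was 1.60 without sorbitol replicate 2. eGFP-YAP was 24.7 and 21.9 CPM with vehicle and 25.6 and 28.8 CPM with sorbitol (0.21 ± 0.24, adjusted p = 0.67). Under scaling to the total count the eGFP-YAP value was -1.22 (adjusted p = 0.0039), above the median of -1.46 over all intervals on that scale.

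H3K27ac at the NEAT1 start was 112.7 and 94.8 CPM with vehicle and fell to 72.5 and 68.6 CPM with sorbitol. The change of -0.56 ± 0.08 (edgeR adjusted p = 3.4e-06) passed in each of the alternatives except a single fit on all 16 libraries (-0.41, adjusted p = 0.112). Interval 6 (chr11:65423693-65424001), further into a NEAT1 exon, had H3K27ac of 18.9 and 17.2 CPM with vehicle and 11.9 and 14.2 CPM with sorbitol. That difference did not pass in the main edgeR fit (-0.47 ± 0.19, adjusted p = 0.061), and passed in 3 of 15 alternatives. Its other targets were too sparse to test, with CTCF counts of 4 and 6 against 5 and 9, RAD21 counts of 8 and 1 against 1 and 0, and eGFP-YAP counts of 15 and 4 against 6 and 1.

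At MALAT1, H3K27ac fell at the upstream start and CTCF tags rose less than at NEAT1. Interval 15 (chr11:65497278-65498627) holds the upstream MALAT1 start, its first exon and an antisense noncoding gene, ENSG00000270117. Its H3K27ac was among the densest of the table with vehicle, above 99.2% of all intervals per kb. The level was 120.6 and 135.7 CPM with vehicle and 65.9 and 58.5 CPM with sorbitol, a drop to 0.487 of the vehicle level (log2 fold change -1.04 ± 0.08, edgeR adjusted p = 1.8e-12).

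CTCF at the upstream MALAT1 start was 14.9 and 13.7 CPM with vehicle and 30.01 and 25.02 CPM with sorbitol. On the TMM scale it was 1.91-fold higher (0.93 ± 0.25, edgeR adjusted p = 0.0051). Under scaling to the total count the value was -0.05 (adjusted p = 0.89), with a median of -1.04 over all intervals on that scale. RAD21 did not separate the groups, with 20.1 and 29.2 CPM against 19.7 and 31.8 CPM (0.09 ± 0.40, adjusted p = 0.92). eGFP-YAP, above 98.2% of intervals per kb with vehicle, was 35.03 and 31.0 CPM with vehicle and 29.2 and 26.2 CPM with sorbitol (-0.25 ± 0.23, adjusted p = 0.59). Both sorbitol libraries lay below both vehicle libraries, by less than the test could resolve.

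Per kb, the intervals in the body of MALAT1 held less CTCF, eGFP-YAP and H3K27ac than the upstream start in both groups. RAD21 per kb was about the same at interval 17 (18.4 and 19.8 CPM per kb with vehicle and sorbitol) as at that start (18.3 and 19.1). Interval 16 (chr11:65500475-65500880), in an exon of MALAT1 and of antisense TALAM1 and with an annotated start of a MALAT1 transcript inside it, was the 1 of 19 intervals with a higher fitted H3K27ac value after sorbitol. H3K27ac was 9.99 and 8.17 CPM with vehicle and 10.3 and 14.7 CPM with sorbitol (0.45 ± 0.23, edgeR adjusted p = 0.16), a difference that passed when only intervals with a mean of at least 50 counts were tested (0.58, adjusted p = 0.027). CTCF and RAD21 reached at most 8 counts and 1 count in any library there, and eGFP-YAP had 12 and 9 counts against 4 and 6.

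Interval 17 (chr11:65507319-65507872) covers the TALAM1 start near the end of MALAT1, and no target passed the test there. H3K27ac was 9.51 and 11.6 CPM with vehicle and 9.50 and 7.08 CPM with sorbitol (-0.34 ± 0.24, edgeR adjusted p = 0.32). CTCF was 3.57 and 4.02 CPM against 3.10 and 6.38 CPM (0.33 ± 0.56, adjusted p = 0.66). RAD21 was 6.21 and 14.2 CPM against 4.93 and 17.03 CPM, and eGFP-YAP 5.51 and 5.53 CPM against 2.38 and 5.92 CPM. Library spread there was as wide as the groups.

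**Figure D2:**
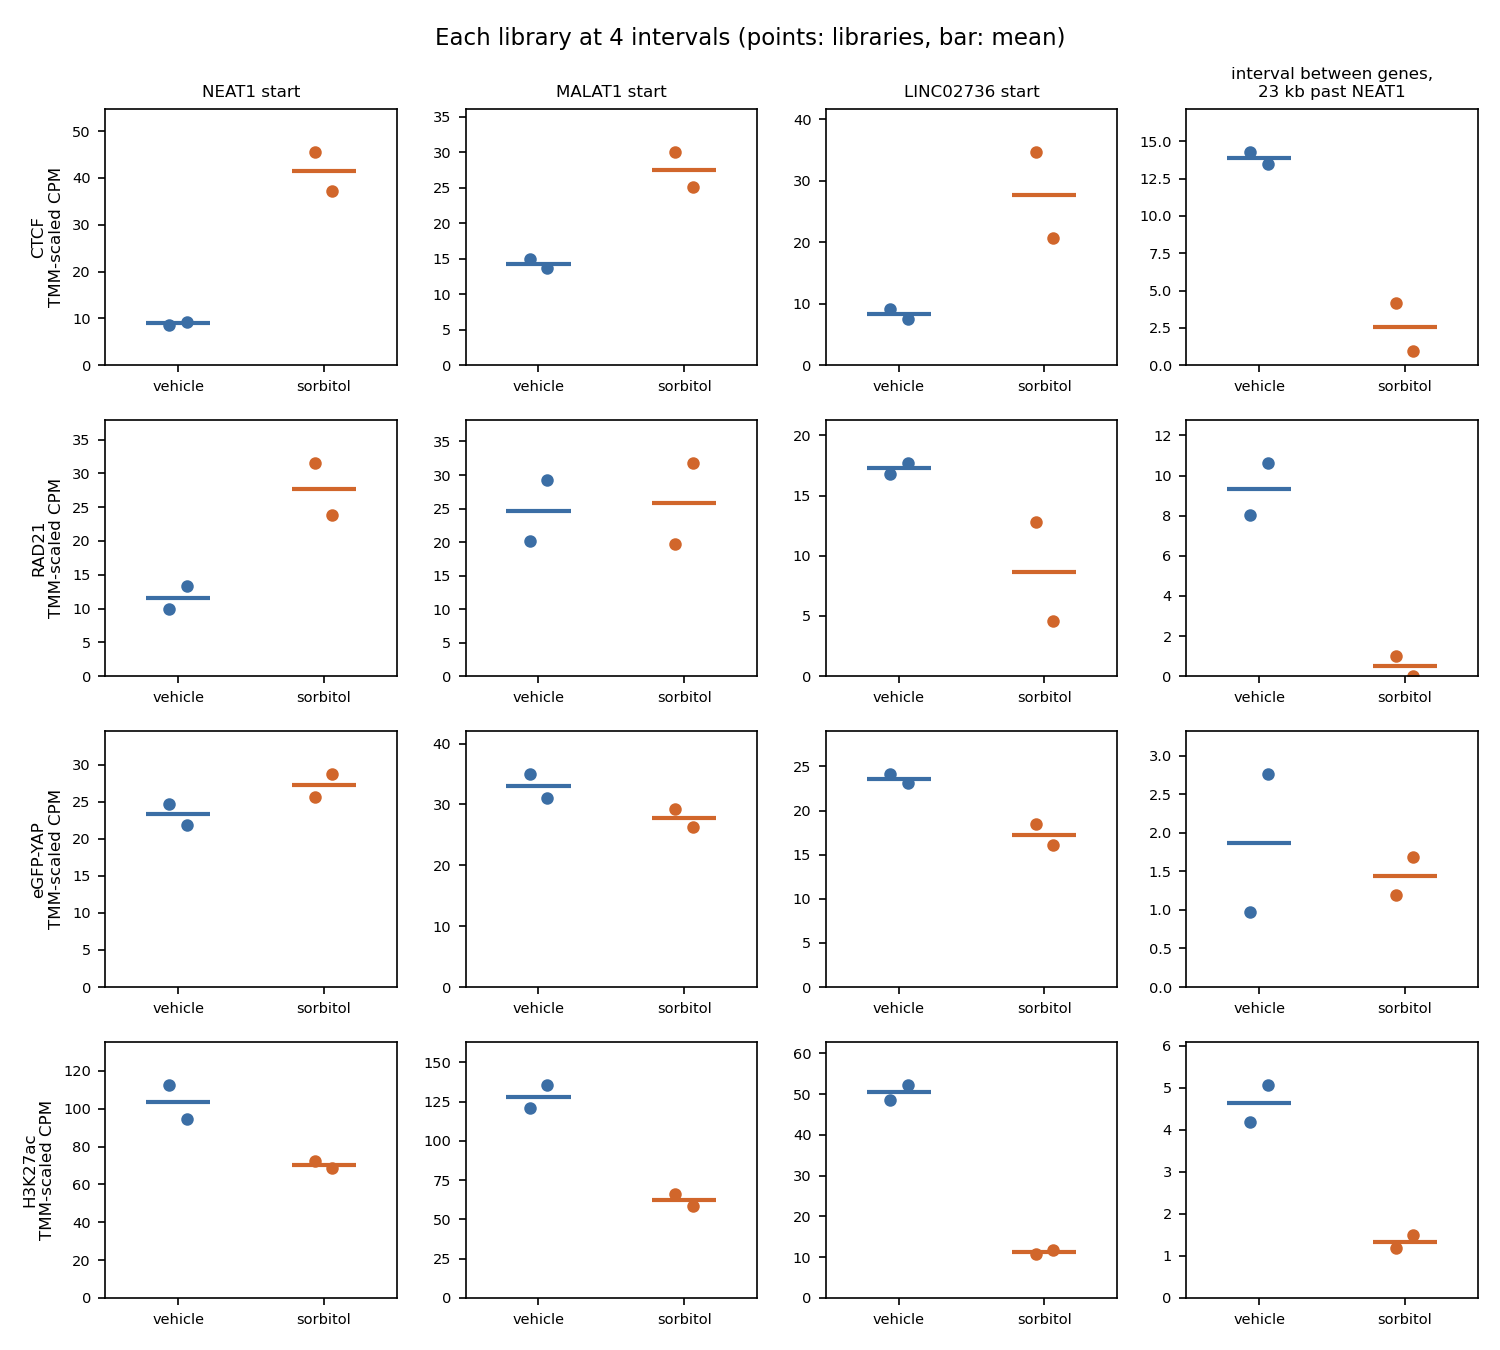
TMM-scaled CPM of every library (points) and the group mean (bars) at the NEAT1 start, the upstream MALAT1 start, the LINC02736 start and interval 8, with 1 row per target and a separate linear y axis from 0 in each panel. CTCF rises at the first 3 intervals and falls at interval 8, while H3K27ac falls at all 4.

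The division of counts between the genes was read inside each library, where scaling between libraries plays no part. The MALAT1 intervals took 66.7% and 64.8% of the CTCF counts in MALAT1 and NEAT1 intervals with vehicle, and 41.1% and 44.8% with sorbitol. The mean fell from 65.8% ± 1.29 to 43.0% ± 2.59 (SD, n = 2), and the groups did not overlap. With 2 against 2 libraries the two-sided exact permutation test cannot go below 0.33, which was the value for CTCF.

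For H3K27ac the MALAT1 share was 51.6% and 58.1% with vehicle and 50.4% and 49.2% with sorbitol (54.9% ± 4.64 against 49.8% ± 0.808, exact permutation p = 0.33). For eGFP-YAP it was 61.1% and 62.8% against 53.8% and 55.7% (61.9% ± 1.21 against 54.7% ± 1.36, exact permutation p = 0.33). RAD21 shares overlapped, at 67.6% and 75.4% with vehicle and 43.1% and 67.7% with sorbitol (exact permutation p = 0.67). The RAD21 difference ran from -28.4 to -3.8 percentage points when single libraries were left out, and was smallest without sorbitol replicate 1. The H3K27ac difference of -5.0 points was -1.8 without vehicle replicate 2 and -8.3 without vehicle replicate 1. The eGFP-YAP shares rest on 79 and 106 counts in the sorbitol libraries.

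**Figure D3:**
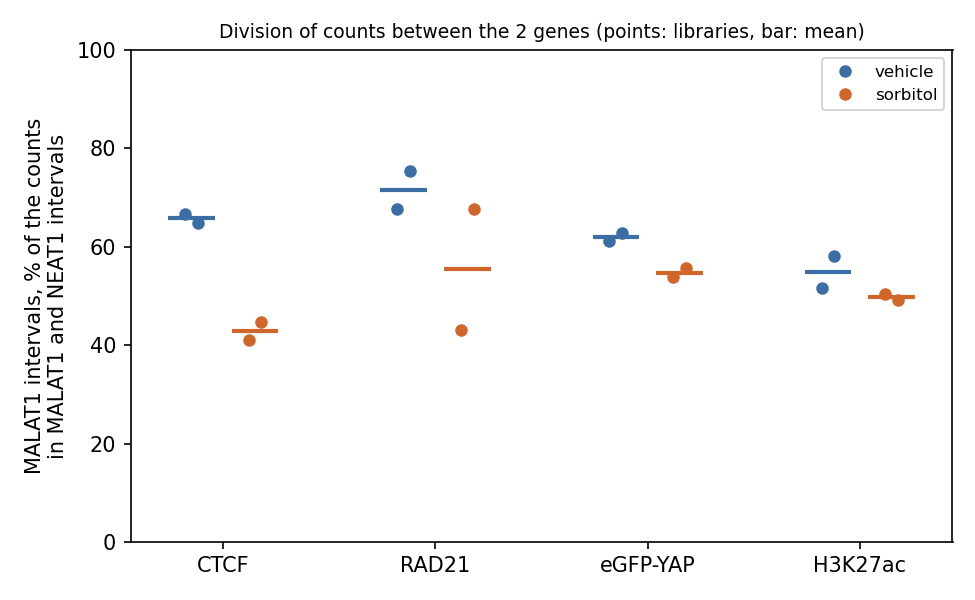
Percent of the counts in MALAT1 and NEAT1 intervals that fall in MALAT1 intervals (y axis, 0 to 100), by target, for vehicle and sorbitol libraries (points) with group means (bars). The share is lower with sorbitol in both libraries for CTCF, eGFP-YAP and H3K27ac, and the RAD21 libraries overlap.

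Between the genes the starts of annotated noncoding RNAs gave most of the H3K27ac signal, and 1 of them had the deepest H3K27ac loss of the locus. Interval 13 (chr11:65487478-65488729) holds the start of LINC02736, a noncoding gene on the minus strand at chr11:65487241-65488714, and that of ENSG00000286756 on the plus strand. H3K27ac was 48.7 and 52.3 CPM with vehicle and 10.8 and 11.8 CPM with sorbitol, 4.47-fold lower (-2.16 ± 0.14, edgeR adjusted p = 1.1e-14). Its share of all H3K27ac counts at the locus was 7.49% and 7.83% with vehicle and 2.81% and 3.14% with sorbitol.

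CTCF moved the other way at interval 13, from 9.16 and 7.57 CPM to 34.7 and 20.6 CPM (1.70 ± 0.30, edgeR adjusted p = 1.3e-04). Under scaling to the total count this was 0.72 with an adjusted p of 0.057. RAD21 was 16.8 and 17.7 CPM with vehicle and 12.8 and 4.54 CPM with sorbitol (-0.95 ± 0.54, adjusted p = 0.31). eGFP-YAP was 24.2 and 23.1 CPM against 18.5 and 16.1 CPM (-0.44 ± 0.27, adjusted p = 0.38). In both of these targets the sorbitol libraries lay below the vehicle libraries without passing the test.

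Interval 8 (chr11:65468884-65469300), an intergenic site 23344 bp past the end of NEAT1, had less CTCF and less H3K27ac with sorbitol. CTCF was 14.3 and 13.5 CPM with vehicle and 4.14 and 0.98 CPM with sorbitol (-2.45 ± 0.49, edgeR adjusted p = 4.5e-04, and -3.42 under scaling to the total count). H3K27ac was 4.19 and 5.07 CPM against 1.19 and 1.49 CPM (-1.78 ± 0.44, adjusted p = 0.0024). RAD21 had 22 and 12 counts against 1 and 0, which did not pass the test over all intervals (adjusted p = 0.068) and did under scaling to the total count (adjusted p = 0.036). The CTCF value was -3.78 without sorbitol replicate 1 and -1.74 without sorbitol replicate 2, and passed in both cases. Interval 8 holds no CTCF consensus in its central 300 bases by the rule above. The same is true of intervals 5, 7, 13 and 15, where CTCF rose on the TMM scale, and of interval 9, where it fell.

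The neighbouring intervals 9 (chr11:65471400-65471754) and 10 (chr11:65472103-65472458) lie in ENSG00000289259, a noncoding gene on the minus strand. CTCF at interval 9 was 9.31 and 11.1 CPM with vehicle and 4.66 and 4.91 CPM with sorbitol (-1.08 ± 0.42, edgeR adjusted p = 0.045), and the value was -2.05 under scaling to the total count (adjusted p = 2.2e-04). It passed in 6 of 14 alternatives. This call was lost when any 1 of the 4 libraries was left out (adjusted p = 0.127 and 0.263 without vehicle replicates 1 and 2, 0.111 and 0.0941 without sorbitol replicates 1 and 2). H3K27ac fell at interval 9 (-1.21 ± 0.29, adjusted p = 0.0018) and at interval 10 (-0.87 ± 0.29, adjusted p = 0.025). The interval 10 call passed in 9 of 14 alternatives. It was lost under scaling to the total count (-0.72, adjusted p = 0.061), with DESeq2 (adjusted p = 0.0888), in a single fit on all 16 libraries (adjusted p = 0.358), and without vehicle replicate 2 (adjusted p = 0.138) or sorbitol replicate 1 (adjusted p = 0.164).

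Interval 7 (chr11:65454795-65455490) holds the start of ENSG00000291174 and FAUP4, a pseudogene. There CTCF was 2.33 and 4.49 CPM with vehicle and 9.83 and 9.32 CPM with sorbitol (1.53 ± 0.49, edgeR adjusted p = 0.016). The call passed in 10 of 14 alternatives. It was lost under scaling to the total count (0.56, adjusted p = 0.34), without vehicle replicate 1 (1.06, adjusted p = 0.226), and with GC-corrected offsets alone (1.16, adjusted p = 0.0736) or with the replicate block (adjusted p = 0.115). H3K27ac was lower, at -1.08 ± 0.27 (adjusted p = 0.0033), and just missed the threshold without vehicle replicate 2 (adjusted p = 0.053) or sorbitol replicate 1 (adjusted p = 0.0529). It was also lost in the single fit (adjusted p = 0.188).

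Interval 11 (chr11:65476471-65478054), at the start of ENSG00000289883, had about as much vehicle H3K27ac per kb (65.7 CPM per kb) as the NEAT1 start (64.8). Its level was 102.3 and 105.8 CPM with vehicle and 70.0 and 76.7 CPM with sorbitol (-0.51 ± 0.08, edgeR adjusted p = 6.4e-06). CTCF there was 10.4 and 6.62 CPM against 14.0 and 16.7 CPM (0.82 ± 0.34, adjusted p = 0.058), and passed without sorbitol replicate 1 (0.94, adjusted p = 0.0459). That CTCF value was -0.17 under scaling to the total count (adjusted p = 0.70). H3K27ac also fell at interval 14 (chr11:65491860-65492193), 865 bp from a start of ENSG00000290061 (-1.05 ± 0.25, adjusted p = 0.0020; 0.0583 without vehicle replicate 2). Interval 12, 200 bp wide and intergenic, passed in no target in the main fits. Its H3K27ac value passed in 4 of 13 alternatives and was -1.60 without vehicle replicate 1.

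CTCF was densest in the upstream flank, at interval 1, in both groups. Interval 1 (chr11:65416236-65416816), 5958 bp upstream of NEAT1 and the site of the exact consensus, had 33.2 and 21.5 CPM with vehicle and 53.3 and 51.5 CPM with sorbitol. The CTCF value rose by 0.91 ± 0.20 (edgeR adjusted p = 0.0011) on the TMM scale and was -0.08 under scaling to the total count (adjusted p = 0.79). RAD21 at interval 1 was 16.1 and 15.1 CPM with vehicle and 5.91 and 6.81 CPM with sorbitol, with counts of 44 and 17 against 6 and 6 (-1.29 ± 0.54, adjusted p = 0.17). On the TMM scale the groups did not overlap in either target and lay in opposite order, though the RAD21 difference did not pass the test.

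Interval 18 (chr11:65510569-65511281), 2496 bp downstream of MALAT1 and another consensus site, stood next to interval 1 in CTCF density in both groups. CTCF was 21.7 and 26.5 CPM with vehicle and 31.6 and 22.1 CPM with sorbitol (0.16 ± 0.24, edgeR adjusted p = 0.61). It fell under scaling to the total count (-0.82, adjusted p = 0.0075) and rose with GC-corrected offsets (0.64, adjusted p = 0.0415). RAD21 was 13.5 and 15.1 CPM against 5.91 and 2.27 CPM (-1.74 ± 0.63, adjusted p = 0.12). H3K27ac at interval 18 was low, at 2.74 and 3.76 CPM with vehicle and 3.56 and 2.61 CPM with sorbitol.

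The vehicle order of CTCF density ran from interval 1 (47.1 CPM per kb) through intervals 18 (33.8), 8 (33.3) and 9 (28.8) to interval 3 (19.1). Intervals 18 and 8 did not differ beyond their library spread. With sorbitol the order began with interval 1 (90.2 CPM per kb), interval 18 (37.6) and the NEAT1 start (25.9), and interval 8 stood at 6.14. These levels are a description, with no test between intervals.

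The remaining upstream intervals, 2 to 4, lie between 1302 and 4067 bp before NEAT1. Interval 3 (chr11:65418759-65419433) had the densest H3K27ac of the locus with vehicle, 103.1 CPM per kb, and fell by 0.78 (SE 0.10, edgeR adjusted p = 1.0e-07). Interval 4 (chr11:65421134-65421472), at the start of ENSG00000290057, went from 29.0 and 32.9 CPM of H3K27ac to 12.96 and 9.44 CPM (-1.45 ± 0.17, adjusted p = 2.1e-08). eGFP-YAP at interval 3 was 16.2 and 14.8 CPM with vehicle and 5.36 and 7.62 CPM with sorbitol (-1.29 ± 0.39, adjusted p = 0.051). That value passed without sorbitol replicate 2 (-1.60, adjusted p = 0.0169) and under 6 other alternatives. Interval 2 passed in no target.

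**Figure D4:**
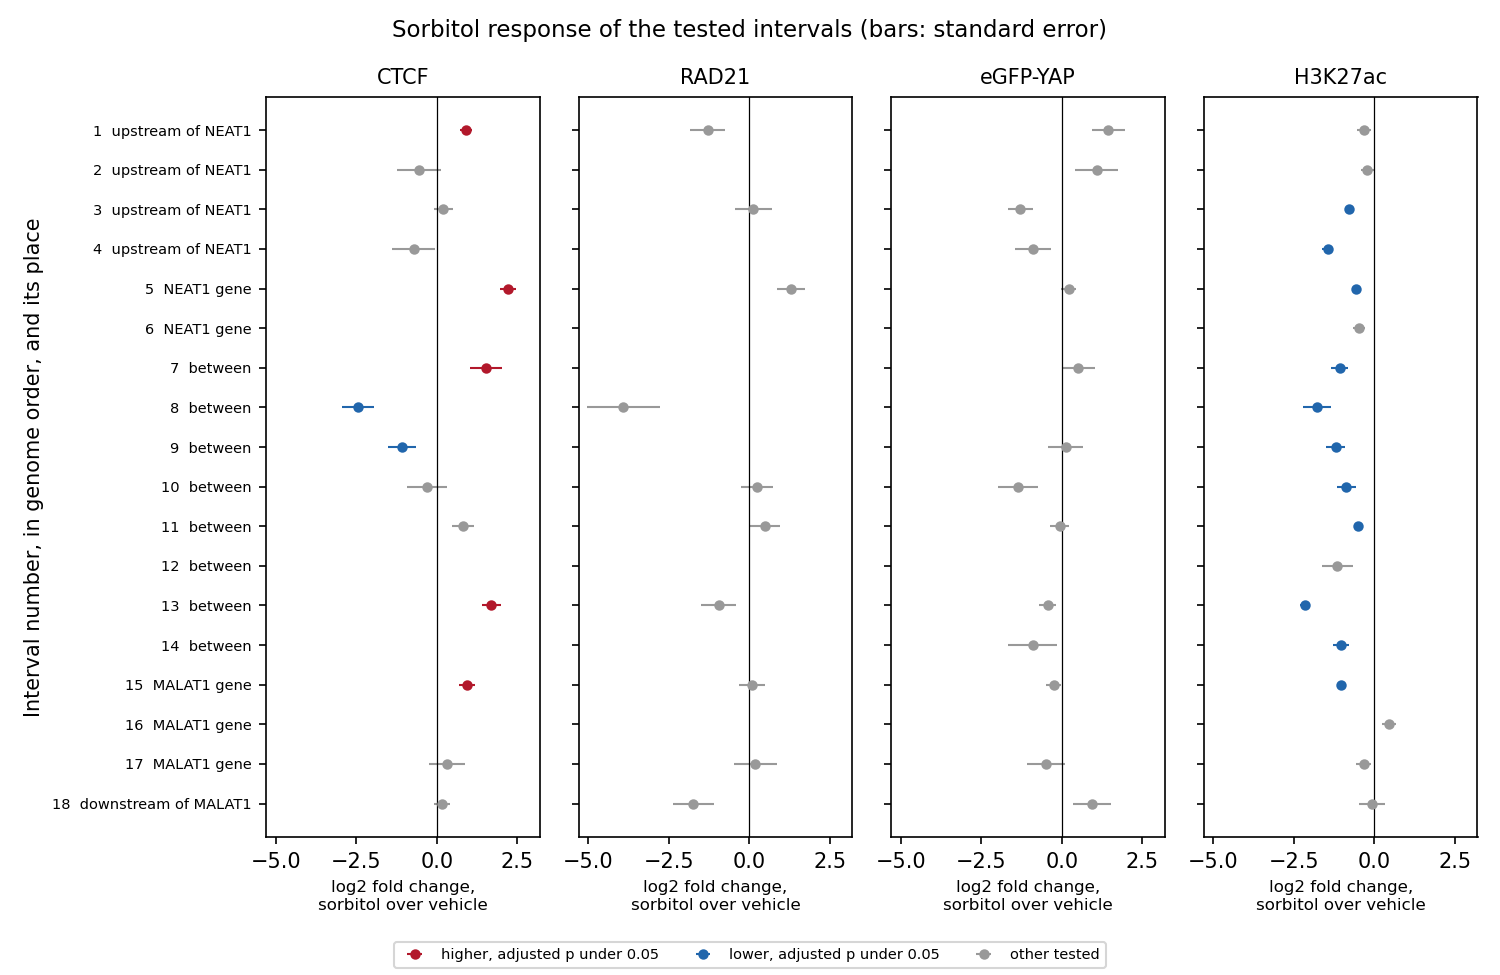
Log2 fold change of sorbitol over vehicle (x axis) with its standard error (bars) for the tested ones of 18 intervals (y axis, numbered in genome order), 1 panel per target. Red points are the 5 CTCF intervals drawn with an adjusted p under 0.05 and a higher value, blue points the 2 CTCF and 11 H3K27ac intervals with a lower value, and RAD21 and eGFP-YAP have none.

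Counted over the locus, CTCF was tested at 15 of 19 intervals, because 4 had at most 18 counts in any library. Of these, 6 rose (1, 5, 7, 13 and 15 among them) and 2 fell (8 and 9) at an edgeR adjusted p under 0.05. Over all 39261 tested intervals 19.5% rose and 20.7% fell, and among start-site intervals 29.1% and 10.3%. The share called at the locus, 8 of 15, stood beside 40.2% of all intervals. The median log2 fold change of the 15 was 0.33, against -0.06 over all. Under scaling to the total count 1 rose (interval 5) and 5 fell (3, 4, 8, 9 and 18) at the locus, and 5.37% and 53.6% over all.

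RAD21 was tested at 11 intervals and eGFP-YAP at 15 (the others had at most 33 and 25 counts in any library), with 0 called in either by edgeR. DESeq2 also called 0, but it gave no adjusted p to 7 of the 11 RAD21 intervals. At an unadjusted p under 0.05 edgeR gave 5 RAD21 and 3 eGFP-YAP intervals, where 23.8% and 20.1% of all tested intervals were under it. At the adjusted threshold the background was 4.79% called for RAD21 (3.34% rose and 1.45% fell) and 6.83% for eGFP-YAP (5.34% and 1.49%). Scaled to the total count, 0 RAD21 intervals rose and 2 fell (1.59% and 6.94% over all), and 0 eGFP-YAP intervals rose and 11 fell (1.48% and 63.5% over all). The medians of the tested members were 0.12 for RAD21 and -0.07 for eGFP-YAP, against -0.01 and -0.04 over all. Without sorbitol replicate 1, eGFP-YAP passed as lower at intervals 10 and 14 (adjusted p = 0.0465 and 0.026), where the other sorbitol library had 1 count and 0 counts.

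H3K27ac was tested at all 19 intervals, of which 0 rose and 12 fell (3, 4, 5, 7, 8, 9, 10, 11, 13, 14 and 15 among them). Over all 56601 tested intervals 8.59% rose and 14.5% fell (23.1% together), and among start-site intervals 9.94% and 26.9%. Of the 19 values, 18 were below 0. Both sorbitol libraries lay below both vehicle libraries at 17 intervals, where 30.6% of all intervals showed that order. The median over the locus was -0.87, against 0.02 over all. In the single fit on all 16 libraries 6 of the 12 no longer passed (5, 7, 9, 10, 11 and 14). Over all intervals in that fit 2173 of 57620 fell, against 8198 of 56601 in the main fit. After scaling to the total count 0 rose and 11 fell, against 14.3% and 10.4% over all.

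Per 1e6 counts outside dominant intervals, H3K27ac at the 19 intervals summed to 656.2 ± 9.48 with vehicle and 417.9 ± 8.41 with sorbitol (SD, n = 2). For CTCF the sums were 308.9 ± 7.42 and 419.5 ± 28.5, and for eGFP-YAP 681.3 ± 29.1 and 527.3 ± 10.5. RAD21 sums of 433.1 ± 33.6 and 441.5 ± 27.4 differed by less than the spread between libraries. Per 1e6 of all counts the CTCF order was the other way, with sums of 233.8 and 202.4 for vehicle and 189.2 and 173.0 for sorbitol. On that scale RAD21 sums were also lower with sorbitol (205.2 and 178.5 against 142.0 and 130.7). Leaving dominant intervals out of the fits gave the same counts of calls for CTCF, RAD21 and H3K27ac, and 1 call for eGFP-YAP.

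The difference between 2 targets' responses was tested directly, as a target by treatment interaction fitted on 8 libraries. The CTCF response exceeded that of H3K27ac at 8 of 19 intervals and fell short of it at 0, where 9.3% and 12.3% of 66550 intervals did so (21.6% in either direction). Such differences were 3.49 ± 0.32 at LINC02736 (edgeR adjusted p = 2.6e-15), 2.40 ± 0.24 at the NEAT1 start (adjusted p = 3.0e-13) and 1.61 ± 0.25 at the MALAT1 start (adjusted p = 2.8e-07). Under scaling to the total count 5 of 19 passed, all in the same direction. On that scale 2562 of 66550 intervals passed in that direction and 18654 in the other.

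The eGFP-YAP and H3K27ac responses differed at 1 of 19 intervals, interval 13 (1.37 ± 0.33, edgeR adjusted p = 0.0028), beside 6.27% of all intervals (2.55% above and 3.72% below). Scaled to the total count, interval 13 no longer passed, and 6 others did in the opposite direction. Over all 52935 intervals on that scale, 288 differences passed above and 18039 below. CTCF and RAD21 responses differed at 2 of 16 intervals, beside 0.83% of all (0.704% above and 0.127% below). These were interval 1 (2.12 ± 0.54, adjusted p = 0.045) and interval 13 (2.54 ± 0.60, adjusted p = 0.032), and neither passed under scaling to the total count (adjusted p = 0.231 and 0.155) or without dominant intervals (adjusted p = 0.0865 and 0.064).

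The start sites of genes that code for proteins of the same nuclear bodies were read in the same fits, from lists set by name. For this list and those below, each gene was read at its start-site interval with the highest mean count over all libraries. The shares over all start-site intervals include weaker intervals, so the comparison is not matched for count level. The lists were read on the TMM scale alone. Under scaling to the total count CTCF rose at 5.37% of all tested intervals, against 19.5% on the TMM scale. Of 30 paraspeckle genes, CTCF rose at 15 and fell at 2 of 29 tested start sites, with a median log2 fold change of 0.80. Over all start-site intervals 29.1% rose and 10.3% fell in CTCF, with a median of 0.42. RBM14, needed for paraspeckle assembly, rose by 1.77 ± 0.32 in CTCF (edgeR adjusted p = 1.5e-04). TAF15 and RBM4B fell by 0.61 and 0.57. H3K27ac fell at 16 and rose at 3 of 30, with a median of -0.27, against 26.9% falling, 9.94% rising and a median of -0.13 over all start-site intervals. It fell at the cold-inducible CIRBP (-1.25 ± 0.08), and rose at FIGN (0.35 ± 0.08) and at the cleavage factor NUDT21 (0.28 ± 0.08). RAD21 rose at 2 of 24, CIRBP and HNRNPR, where 2.76% of start-site intervals rose. eGFP-YAP rose at 2 of 30, where 2.91% of start-site intervals rose and 1.39% fell. These were RBM4B and SFPQ, the latter an essential paraspeckle protein (1.15 ± 0.24, adjusted p = 0.0049).

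Of 34 nuclear speckle genes, CTCF rose at 19 and fell at 0 of 34, with a median of 0.96. Over all start-site intervals 29.1% rose and 10.3% fell in CTCF, with a median of 0.42. The splicing factor genes SRSF2 (3.24 ± 0.15, edgeR adjusted p = 3.5e-14) and SRSF7 (3.12 ± 0.20, adjusted p = 3.7e-11) had larger values than the MALAT1 and NEAT1 starts. H3K27ac rose at 6 and fell at 19 of 34, with U2AF2 at -1.54 ± 0.08 and SRSF11 at 0.57 ± 0.08. Its shares over all start-site intervals were 9.94% rising and 26.9% falling. RAD21 rose at 3 of 32, SRSF7 and SRSF3 with the largest values, and eGFP-YAP rose at 3 and fell at 1 of 34. Among all start-site intervals 2.76% rose in RAD21, and 2.91% rose and 1.39% fell in eGFP-YAP. SRSF7 (1.76 ± 0.20, adjusted p = 4.1e-06) and SRSF2 (1.67 ± 0.21, adjusted p = 1.2e-05) gained eGFP-YAP, while PRPF8, a core spliceosome protein, lost it (-1.63 ± 0.45, adjusted p = 0.035).

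Another list held 29 other widely transcribed noncoding RNA genes. There CTCF rose at 15 and fell at 0 of 28 (median 0.97), led by the small nucleolar RNA host genes SNHG3 (2.89 ± 0.30) and ZFAS1 (2.46 ± 0.20). Over all start-site intervals 29.1% rose and 10.3% fell in CTCF (median 0.42). H3K27ac fell at 17 and rose at 4 of 29 (median -0.36), from MIR17HG at -1.90 ± 0.07, host of a microRNA cluster, to NORAD at 0.68 ± 0.11. Its shares over all start-site intervals were 26.9% falling and 9.94% rising (median -0.13). RAD21 rose at 2 of 25 and eGFP-YAP at 5 of 29, with MIR17HG and GAS5 leading both. Among all start-site intervals 2.76% rose in RAD21 and 2.91% in eGFP-YAP. The MALAT1 start (-1.04) and the NEAT1 start (-0.56) lay inside the range of H3K27ac values of these genes, and their CTCF values (0.93 and 2.21) below that of SNHG3.

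Start sites whose levels moved much like those of the genes across the 16 libraries were found among 10155 start-site intervals outside the locus, on log2 CPM centred within each target. For NEAT1 they included SF1, which codes for a splicing factor (Pearson r = 0.973), and PDIA6 (0.967), with a median r of 0.36 over all candidates. For MALAT1 they were PDLIM7 (0.967), PKNOX1 (0.942) and NT5DC3 (0.938), with a median of 0.286. The MALAT1 and NEAT1 starts themselves had an r of 0.623. These libraries share treatment groups and depth, and the values are a description with no test.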

How the data were processed

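CUT&Tag libraries were tagged with a transposase tethered to the antibody, amplified by PCR and sequenced, per the labels' protocols. The deposited table holds raw counts per interval for 74404 intervals shared by all 16 libraries, as whole numbers not scaled between libraries. Per the submitters' processing notes, the tools were Trim Galore, FastQC, BWA 0.7.17, SAMtools, Picard, bedtools 2.31.1 and MACS2 2.2.6 with build hg38; their order and settings, whether peaks were called on pooled libraries, and whether reads or fragments were counted are not given in the sources used here. Starts were read as 0-based (5 equal 0) and printed 1-based. Columns were matched to libraries by target, treatment and replicate in their names, with 0 columns left over and 0 pairs of identical libraries.

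Each target's 4 libraries were fitted alone with edgeR 4.0.16 (R 4.3.3) and tested, two-sided, by robust quasi-likelihood, with TMM over tested intervals, the filterByExpr filter at 10 counts, and Benjamini-Hochberg adjustment over all tested intervals of the target at 0.05. Standard errors were derived from the F statistic. Responses of 2 targets were compared by interaction on 8 libraries. CPM means counts per 1000000 after TMM scaling. The table was used whole for each fit, and the step was tested on simulated data. The simulation changed few intervals, equally in both directions, so it cannot check the choice of scaling. Alternatives were DESeq2 1.42.0, its size factors in edgeR, scaling to the total or to the weakest 25% of intervals, leaving out dominant intervals, no filter, a mean of at least 50 counts, a single fit on 16 libraries, a replicate block, GC-corrected offsets (lowess, span 0.3), the last pair together, and leaving out each library. PCR copies are not independent molecules.

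Values in every library are given for intervals in either gene; others are named where an adjusted p was under 0.05 in any target, and a few more beside them. Of each gene list the 2 largest changes per direction that passed in each target were available for naming, and the 3 most similar start sites of each gene were named. The likeness used log2(CPM + 1) centred within each target. The single results of a few items these rules name are not reported here. The intervals and gene lists were chosen with earlier results of these data known.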

Additional observations from a re-analysis of the deposited data

Results flagged for a closer look

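Direct tests of the difference between 2 targets' sorbitol responses passed at 8 intervals for CTCF against H3K27ac (edgeR interaction, adjusted over all tested intervals, 2 libraries per group). On the log2 scale the CTCF response exceeded the H3K27ac response by 0.87 at interval 1 upstream of NEAT1 (adjusted p = 0.022), by 2.40 at the NEAT1 start (adjusted p = 3.0e-13) and by 1.99 at interval 6 in NEAT1 (adjusted p = 0.035). It exceeded it by 2.27 at interval 7 (adjusted p = 0.0014), by 0.94 at interval 11 (adjusted p = 0.015) and by 3.49 at interval 13, the LINC02736 start (adjusted p = 2.6e-15). At the upstream MALAT1 start the difference was 1.61 (adjusted p = 2.8e-07). The single values of the remaining interval are not given. The interval 6 value rests on at most 9 CTCF counts in a library.

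Of those named, 3 were lost under some of 6 alternatives. The difference under scaling to the total count was 0.10 at interval 1 (adjusted p = 0.846), 1.23 at interval 6 (adjusted p = 0.187) and 0.17 at interval 11 (adjusted p = 0.714). With GC-corrected offsets it was 0.33 at interval 1 and 0.43 at interval 11, and with the replicate block 1.90 at interval 6, and these values did not pass either. The differences at intervals 5, 7, 13 and 15 passed in all 6.

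The eGFP-YAP response exceeded the H3K27ac response by 1.37 at interval 13 (adjusted p = 0.0028). The CTCF response exceeded the RAD21 response by 2.12 at interval 1 (adjusted p = 0.045) and by 2.54 at interval 13 (adjusted p = 0.032). The first was 0.15 under scaling to the total count, and neither of the others passed there or without dominant intervals.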

How the results depend on the processing

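Of 116 values of the 8 called CTCF intervals under alternatives, 97 kept their direction and side of the threshold, 17 no longer passed and 2 changed sign. Those 2 were interval 1 at -0.08 and the MALAT1 start at -0.05, both under scaling to the total count. For the 12 H3K27ac calls, 164 of 177 values kept direction and call and 13 no longer passed; none changed sign. The CTCF rise at the NEAT1 start passed in all 15 alternatives (1.22 to 2.46) and the MALAT1 start H3K27ac loss in all 15 (-1.31 to -0.89).

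The number of CTCF calls, 8, became 4 with a mean of at least 50 counts (5 intervals tested) and 5 with the replicate block and GC-corrected offsets together, where the MALAT1 start had 0.71 (adjusted p = 0.0502); it ran from 6 to 8 with a library left out. RAD21 calls, 0, became 2 under scaling to the total count, 2 under the weakest 25%, 1 with no count filter and 3 in a single fit on 16 libraries, and ran from 0 to 2 with a library left out. eGFP-YAP calls, 0, became 11 under scaling to the total count and 1 each with DESeq2 size factors, the weakest 25%, no dominant intervals, no count filter and a single fit, and ran from 0 to 2 with a library left out. H3K27ac calls, 12, became 6 in a single fit, 15 under the weakest 25%, 14 with GC-corrected offsets and 10 with a mean of at least 50 counts (14 intervals tested), and ran from 9 to 13 with a library left out. The differences between CTCF and H3K27ac, 8, became 5 under scaling to the total count, 5 with GC-corrected offsets and 10 under the weakest 25%. Over all 66550 intervals, differences passed above and below at 2562 and 18654, at 3348 and 9203, and at 13637 and 3158 in those alternatives. Those between eGFP-YAP and H3K27ac, 1, became 6 under scaling to the total count, in the opposite direction. On that scale, differences passed in that direction at 18039 of 52935 intervals. Those between CTCF and RAD21, 2, became 0 under scaling to the total count and 0 without dominant intervals. Over all intervals 75 passed above and 64 below in the first case (of 42641), and 122 and 44 in the second (of 41433). Beyond scaling and fewer intervals tested, the cause was not tested.

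The MALAT1 share of CTCF counts changed by -24.6 to -21.0 percentage points with a library left out, that of RAD21 by -28.4 to -3.8, that of eGFP-YAP by -8.2 to -6.2 and that of H3K27ac by -8.3 to -1.8. A lone library left in a group is assumed to vary like the others.

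No sign of pairing by replicate number was seen. The correlation of deviations between same-numbered libraries was -0.009 for CTCF, -0.004 for RAD21, 0.006 for eGFP-YAP and -0.007 for H3K27ac. Few counts per interval weaken such a correlation, so this check cannot exclude pairing. With the replicate block the calls at the locus were 7 for CTCF, 0 for RAD21, 0 for eGFP-YAP and 12 for H3K27ac, and 7, 1 and 2 for the differences of CTCF and H3K27ac, eGFP-YAP and H3K27ac, and CTCF and RAD21.

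Depth limits RAD21 and eGFP-YAP most, with 160 to 202 and 207 to 290 counts over the 19 intervals in a sorbitol library.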
